A study of Mus musculus with 11 samples.

Results

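Serpins are protease inhibitors that trap their target: a protease cuts the exposed reactive centre loop, the serpin changes shape, and both proteins are locked in one inactive complex. In cytotoxic lymphocytes the intracellular serpins of the Serpinb group are known for guarding the cell against its own granule proteases, and Serpina3g, also called Spi2A, is known for holding lysosomal cathepsins in check. The 7 genes described here are Serpina3g with its close neighbours Serpina3f and Serpina3h, and Serpinb9, Serpinb6a, Serpinb6b and Serpinb1a. They were picked by gene name from the 54532 genes of the count table, and the set was chosen by the difference between middle-aged and young libraries, so that their age differences are given below as descriptions. Counts of members past a threshold stand beside the share of all genes, and nothing is read from them.

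The libraries were made from CD8+CD44+Ly49+CD122+ T cells, called CD8+ Tregs, sorted by flow cytometry from the spleen of wild-type (WT) mice with no transgene or treatment in any group. The 6 young libraries came from mice of 2 to 3 months (3 male, 3 female). The 5 middle-aged libraries, which the sample labels call old, came from mice of 10 to 12 months (2 male, 3 female). The sources differ slightly, and 1 of them gives 3 and 12 months for these cells. The comparison addresses how gene expression in these cells differs with age. Each library is described as a separate replicate, without the number of mice pooled in it, so the spread measured is that between libraries.

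Total counts ran from 6135736 in young male 1 and 8421396 in young female 1 to 24394532 in young female 2, and the other 8 libraries held at least 15662717. The 10 markers of the sorted cells (Cd3e, Cd8a, Cd44, Il2rb, Ikzf2, Klra genes and others) were detected in all 11 libraries, with a summed level of 6314 to 9359 CPM (counts scaled to a common library size with TMM factors) in young and 6228 to 9408 in middle-aged libraries. Markers of other cells were uneven among the libraries. Middle-aged female 2 held 700.2 CPM of S100a8, 763 CPM of S100a9 and 1055 CPM of Lyz2, genes of neutrophils and other myeloid cells, where the next library held 38.6, 41.4 and 285 CPM. Of the 12 myeloid markers, Ly6c2 alone held 1318 to 3328 CPM in young and 992 to 2513 in middle-aged libraries. Lyz2, S100a8 and S100a9 had log2 fold changes of 2.38, 4.18 and 3.96 by age, with unadjusted p of 0.0111, 0.0229 and 0.0392 in edgeR's test, none of which passed the adjustment. Other markers of the list went down, namely Itgam (-0.73), Fcer1g (-0.37), Fcgr3 (-0.35), Adgre1 (-0.28) and Ly6c2 (-0.09). Csf1r (0.10), Cd68 (0.97), Cd14 (1.19) and Csf3r (1.71) went up. The 11 markers without Ly6c2 summed to 149.9 to 320.5 CPM in young libraries, with a median of 205. In middle-aged libraries they summed to 197 to 2862 CPM, with a median of 309.8 and the highest sum in female 2. Of all 12 markers, 6 were detected in young male 1, 7 in young female 1 and at least 11 in the others. The 7 erythroid and platelet markers summed to 25.9 to 136 CPM in young and 1.04 to 28.7 CPM in middle-aged libraries, highest in young male 3 at 136 and young female 1 at 129 CPM. Hbb-bs and Hba-a2 of that list had log2 fold changes of -2.85 and -2.74 (adjusted p = 0.498 and 0.587 in edgeR with Benjamini-Hochberg adjustment). B cell markers summed to 130 to 393 CPM in young and 169 to 597 CPM in middle-aged libraries. Plasma cell markers summed to 88.0 to 132 and 116 to 366 CPM, and both lists were highest in middle-aged female 2. Dendritic cell markers summed to 130 to 281 and 104 to 188 CPM, and CD4 T cell markers to 21.5 to 128 and 72.0 to 144 CPM. The part of these other cells in the age differences of the members was not tested. Since these are bulk libraries, fewer cells that express a gene and less RNA per cell cannot be told apart.

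The members lie in 2 chromosomal clusters of GRCm38. Serpina3f (chr12:104214544-104221129), Serpina3g (chr12:104236245-104241939) and Serpina3h (chr12:104247905-104253669) lie in this order on the plus strand of chromosome 12. Serpinb1a (chr13:32842092-32851185, minus strand), Serpinb6b (chr13:32965209-32979067, plus), Serpinb9 (chr13:33003250-33017957, plus) and Serpinb6a (chr13:33917918-34002794, minus) lie on chromosome 13. The annotation lists 6 as protein coding and Serpina3h as a transcribed unprocessed pseudogene. What sets a serpin's target is its reactive centre loop. The Serpina3 genes are nearly alike in the transcript bases just before it, so their loop bases are shown first. They were read 5′ to 3′ from GENCODE transcripts of GRCm38. The lower-case bases at both ends are the conserved hinge and the codons that close the loop, and the capitals are the bases between them.
Serpina3g: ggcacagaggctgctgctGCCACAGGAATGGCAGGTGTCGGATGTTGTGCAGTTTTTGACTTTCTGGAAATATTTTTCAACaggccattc
Serpina3f: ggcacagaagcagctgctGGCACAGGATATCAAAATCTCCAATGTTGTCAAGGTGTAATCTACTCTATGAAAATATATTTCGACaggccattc
Serpina3h: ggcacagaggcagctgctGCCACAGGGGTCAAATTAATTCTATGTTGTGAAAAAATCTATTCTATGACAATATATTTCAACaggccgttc

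These 3 stretches lie in the last exon of their transcripts, at chr12:104241072-104241161 (exon 5 of 5), chr12:104220245-104220337 (exon 6 of 6) and chr12:104253511-104253600 (exon 4 of 4), and the capitals span 21, 22 and 21 codons. Over the 300 transcript bases before the hinge and the hinge itself, Serpina3g shared 94.3% of aligned bases with Serpina3f and 94.97% with Serpina3h. In the loop the shares were 62.1% and 60.3%. Serpina3f and Serpina3h shared 92.8% before and through the hinge and 73.1% in the loop. The Serpinb loops are shown for the same reason, since Serpinb9, Serpinb6a, Serpinb6b and Serpinb1a are known for different targets.
Serpinb9: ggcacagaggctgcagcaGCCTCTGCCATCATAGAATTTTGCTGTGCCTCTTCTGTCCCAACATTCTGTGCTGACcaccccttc
Serpinb6a: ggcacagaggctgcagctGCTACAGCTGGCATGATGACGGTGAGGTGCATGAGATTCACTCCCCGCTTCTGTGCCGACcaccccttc
Serpinb6b: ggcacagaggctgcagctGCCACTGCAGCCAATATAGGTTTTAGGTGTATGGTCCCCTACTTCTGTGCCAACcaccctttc
Serpinb1a: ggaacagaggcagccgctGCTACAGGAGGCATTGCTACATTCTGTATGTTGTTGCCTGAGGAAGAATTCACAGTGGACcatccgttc

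The Serpinb stretches lie in the last exon as well, at chr13:33015699-33015782 (exon 8 of 8, plus strand), chr13:33918107-33918193 (exon 8 of 8, minus), chr13:32978207-32978287 (exon 7 of 7, plus) and chr13:32842884-32842970 (exon 7 of 7, minus). Serpinb6a and Serpinb6b shared 85.0% of aligned bases before and through the hinge and 61.7% in the loop. Serpinb9 shared 68.9% with Serpinb6b and 63.9% with Serpinb6a outside the loop, and 63.3% and 59.0% within it. The conserved hinge was therefore followed in every member by a loop of its own, and the 2 pairs with Serpina3g showed the widest gaps between the stretch before it and the loop among the 21 pairs.

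**Figure D1:**
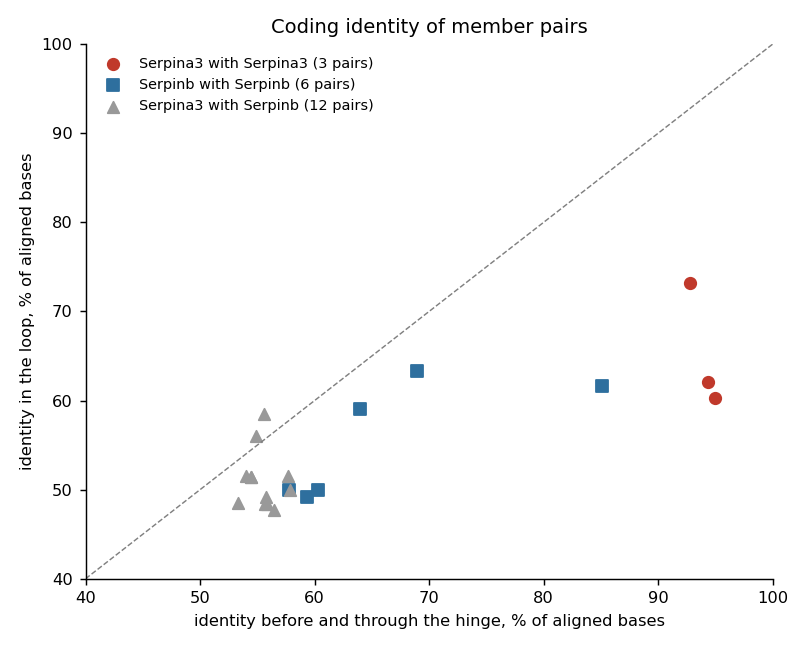
Identity of transcript bases for the 21 pairs of members, before and through the hinge (x axis, percent) and in the loop (y axis, percent). The dashed line marks equal identity. The 3 Serpina3 pairs and the pair of Serpinb6a with Serpinb6b lie far below the line, with 92.8 to 94.97% and 85.0% outside the loop against 60.3 to 73.1% and 61.7% in it.

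Such likeness bears on counting, because reads from shared stretches could be assigned to the wrong gene. Of all 31-base words in the transcripts of Serpina3g, 71.6% occurred in no other gene, as did 72.7% for Serpina3f and 60.2% for Serpina3h. Serpina3g shared 350 of 2155 words with Serpina3f. The share of unique words was 95.1% for Serpinb9, 93.2% for Serpinb6b, 89.8% for Serpinb1a and 71.0% for Serpinb6a, which shared 734 of its 1620 non-unique words with Nqo2, more than with any other gene. Values of the Serpina3 genes and of Serpinb6a, with the lowest shares, are uncertain for this reason. The number of reads assigned to the wrong gene was not measured.

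Serpina3g, the inhibitor known for cathepsins B and L, had the widest age difference of the members in the fit of all 11 libraries. Young males 1 to 3 had 44.6, 40.9 and 54.9 CPM and young females 1 to 3 had 14.7, 21.1 and 54.8 CPM, with raw counts of 106 to 1151. Middle-aged males 1 and 2 had 223 and 156 CPM and middle-aged females 1 to 3 had 297, 240.3 and 158 CPM, with raw counts of 2651 to 5770. No middle-aged library fell within the young range, with 156 CPM as the lowest middle-aged and 54.9 CPM as the highest young value.

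The young mean was 38.5 ± 17.0 CPM (SD, n = 6) and the middle-aged mean 215 ± 59.6 CPM (SD, n = 5). The log2 fold change of middle-aged over young from the edgeR fit with sex was 2.54 (standard error 0.37), a 5.802-fold difference, which placed it at rank 109 of 13129 tested genes. By level per kilobase of gene length, Serpina3g moved from rank 3207 in young to rank 659 in middle-aged libraries. For every number from 1 to 3 the difference of mean log2 CPM was positive, at 3.32, 2.72 and 1.52. The third, for which there was no middle-aged male, set middle-aged female 3 alone against young male 3 and young female 3. It was the smallest, and these young libraries had the highest levels among the young ones.

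**Figure D2:**
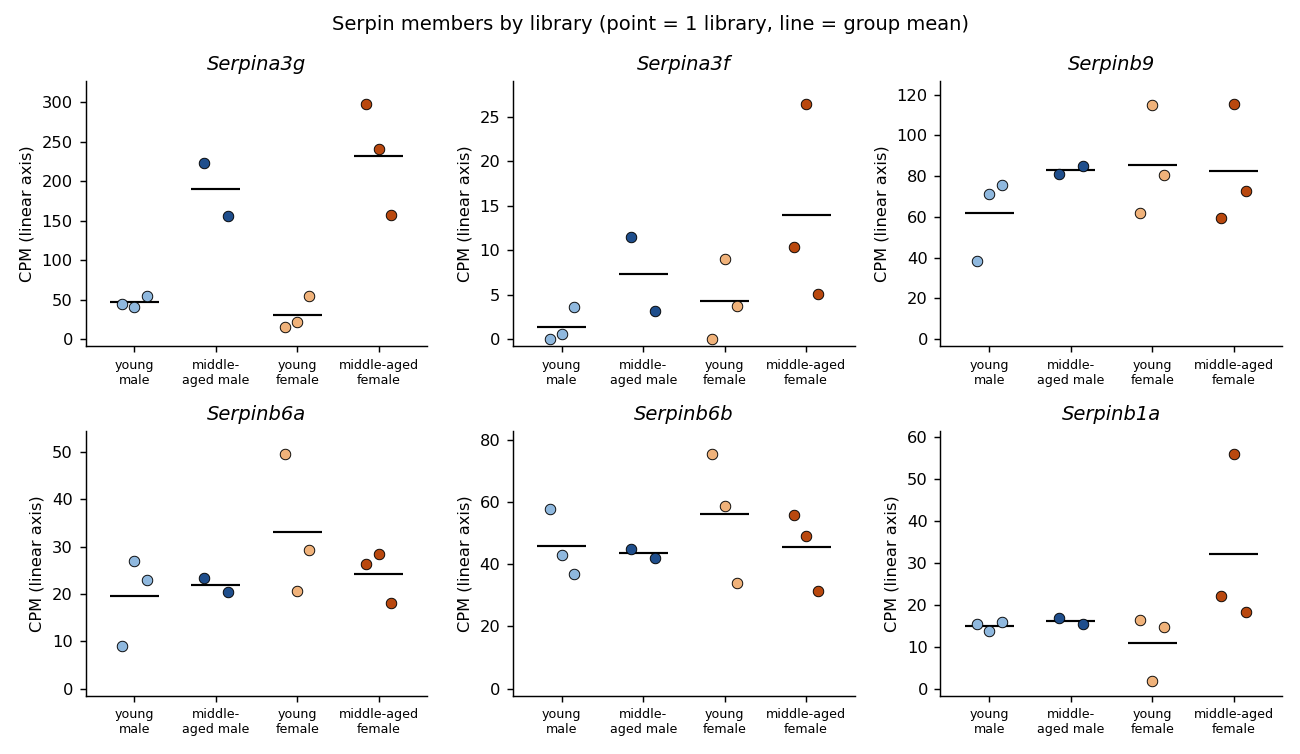
Level of 6 serpin members in CPM (linear y axes) by library; each point is 1 library, the line is the group mean, and blue and orange mark males and females. For Serpina3g the middle-aged libraries sit between 156 and 297 CPM, above all young libraries, while the other 5 members overlap between the ages.

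Serpina3f, the paralog upstream of Serpina3g, was far lower. No count was found in young male 1 or young female 1, the 2 shallowest libraries, which allows a level of up to 0.542 and 0.417 CPM. Young males 2 and 3 had 0.610 and 3.58 CPM and young females 2 and 3 had 9.02 and 3.68 CPM. Middle-aged males had 11.4 and 3.12 CPM and middle-aged females had 10.4, 26.4 and 5.07 CPM. The ages overlapped, since young female 2 lay above 2 of the 5 middle-aged libraries. The means were 2.81 ± 3.48 CPM (n = 6) and 11.3 ± 9.15 CPM (n = 5), with a log2 fold change of 1.97 and a standard error of 1.01. In males alone its log2 fold change of 2.32 (standard error 1.47) was above the 2.02 of Serpina3g. Over left-out libraries the log2 fold change ran from 1.51 (without middle-aged male 1) to 2.62 (without young male 3), with 2.59 without young female 2 and 1.61 without middle-aged female 2. Serpina3h, the pseudogene, had a count of 0 in all 11 libraries, which allows up to 0.119 CPM in the deepest and up to 0.542 CPM in the shallowest library.

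Serpina3g held nearly all reads of the Serpina3 genes. Its share of their counts averaged 92.6% ± 11.4 (SD, n = 6) in young and 95.3% ± 3.20 (n = 5) in middle-aged libraries. Young female 2 stood out with 70.1% of 758 counts (95% Clopper-Pearson interval 66.7 to 73.3%, counting error only), the rest being Serpina3f. When the counts of all Serpina3 genes were summed into 1 feature the log2 fold change was 2.48 (standard error 0.36).

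Serpinb9, also called Spi6, is the inhibitor of granzyme B in mouse lymphocytes. In young libraries it ranged from 38.3 to 115 CPM with a median of 73.6 (n = 6), and middle-aged libraries had 80.8 and 85.1 CPM in males and 59.4, 115 and 72.7 CPM in females. The lowest value was that of young male 1 and the highest 2 were those of young female 2 and middle-aged female 2, so that the ages overlapped throughout. The means were 73.7 ± 25.01 and 82.6 ± 20.7 CPM, and the log2 fold change was 0.16 (standard error 0.27).

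Serpinb6a and Serpinb6b are near relatives, and the second is known as an inhibitor of granzyme A. Serpinb6a ranged from 9.03 CPM in young male 1 to 49.6 CPM in young female 1, with a young median of 24.99 CPM, and from 18.0 to 28.5 CPM in middle-aged libraries. Its log2 fold change was -0.18 (standard error 0.35). Both extremes were the shallow young libraries, which held 50 and 357 counts. Serpinb6b ranged from 34.1 to 75.4 CPM in young libraries with a median of 50.3, and middle-aged libraries had 44.97, 42.2, 55.9, 49.0 and 31.4 CPM. Its log2 fold change was -0.20 (standard error 0.26), and the highest value was again that of young female 1. For neither gene did the ages separate, and the differences were smaller than their standard errors.

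Serpinb1a is known as an inhibitor of the neutrophil proteases elastase, cathepsin G and proteinase 3. In 5 of the 6 young libraries the level lay between 13.7 and 16.4 CPM, and young female 2 had 1.87 CPM (47 counts in the deepest library). Middle-aged males had 16.9 and 15.4 CPM, and middle-aged females had 22.1, 55.9 and 18.2 CPM. Thus the level was similar in most libraries of both ages, with 1 young library far below and 1 middle-aged library far above the rest. The means were 13.0 ± 5.55 (n = 6) and 25.7 ± 17.1 CPM (n = 5), and the log2 fold change was 0.93 (standard error 0.56). Without middle-aged female 2 it was 0.50 (standard error 0.51), with a middle-aged mean of 18.1 ± 2.84 CPM (n = 4), and without young female 2 it was 0.57 (standard error 0.40).

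The proteases that Serpinb1a is known to inhibit were found in that same middle-aged library. Elane, the gene of neutrophil elastase, had 73.4 CPM (1763 counts) in middle-aged female 2 and at most 1.09 CPM elsewhere. Prtn3, the gene of proteinase 3, had 29.7 CPM there and at most 0.531 CPM elsewhere, and Ctsg, the gene of cathepsin G, had 14.9 CPM there and at most 0.177 CPM elsewhere. The myeloid markers S100a8, S100a9 and Lyz2 were highest in this library too, as given above. Their part in the Serpinb1a value was not tested.

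Over the 6 members tested, the median log2 fold change was 0.54, beside 0.0028 over all 13129 tested genes. It was positive for 4 of 6, beside 50.4% of all tested genes. Genes were tested with the quasi-likelihood method of edgeR, adjusted after Benjamini-Hochberg over all tested genes. It called 2 genes higher (0.0152% of those tested) and 1 lower (0.00762%) in middle-aged libraries, and no member was among them. DESeq2 called 70 genes higher (0.538% of those with an adjusted p) and limma voom 87 (0.663%), and in each 1 of the 6 members, Serpina3g, was among them. Over 25 alternatives with such a test, Serpina3g was called in 7 and no other member in any. These 3 genes, named after their values were seen, were Fcgr2b and Asns, which were higher, and Atp1b1, which was lower. At an unadjusted p under 0.05, 2% of genes were higher and 0.99% lower, and 1 of the 6 members, Serpina3g, was higher. Complete separation of the ages, with every middle-aged library above every young one, was seen for 1.02% of genes and for the same member. The reverse was seen for 0.297% of genes and for no member. Since the members were picked on this contrast, these counts are given without a reading, and the filter on low counts that left 6 members depends on the same libraries.

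**Figure D3:**
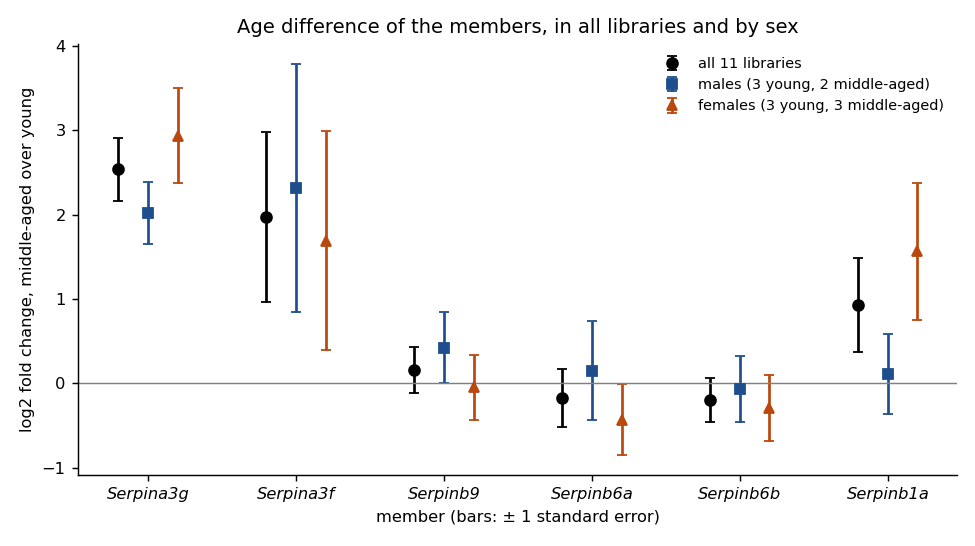
Log2 fold change of middle-aged over young (y axis) for 6 serpin members in all 11 libraries, in males alone and in females alone; bars are ± 1 standard error. Serpina3g is at 2.54 in all libraries, 2.02 in males and 2.93 in females, and Serpinb9, Serpinb6a and Serpinb6b lie between -0.43 and 0.42 in all 3 fits.

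Sex was not used to choose the members. In the edgeR fit, 5 genes (0.0381% of those tested) differed between males and females, namely Xist and the Y-linked genes Kdm5d, Eif2s3y, Uty and Ddx3y, and none was a serpin. Over the members, male over female log2 fold changes ran from -1.27 (standard error 1.03) for Serpina3f to 0.23 (standard error 0.36) for Serpina3g, each with an adjusted p of 1 in edgeR's test with Benjamini-Hochberg adjustment. Young males and young females had 46.8 ± 7.24 and 30.2 ± 21.5 CPM of Serpina3g (n = 3 each). Middle-aged males had 189.6 ± 47.1 CPM (n = 2) and middle-aged females had 232 ± 70.1 CPM (n = 3).

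Whether the age difference itself differed between the sexes was tested as an interaction. No gene passed in edgeR, DESeq2 or limma voom (0% of those tested), and 158 of 13129 had an unadjusted p under 0.05 in edgeR. For Serpina3g the age difference of males minus that of females was -0.92 on the log2 scale (standard error 0.70, unadjusted p = 0.214 in edgeR's test over all genes). For Serpinb1a it was -1.45 (standard error 1.05, unadjusted p = 0.199 in the same test). Its log2 fold changes by age were 0.11 in males alone and 1.56 in females alone. Over left-out libraries the Serpina3g value ran from -1.67 (without young female 3) to -0.59 (without young female 1). The Serpinb1a value was -0.77 without middle-aged female 2, -0.94 without young female 2 and -3.09 in limma voom, and no alternative brought either past the adjusted threshold. With 2 middle-aged males, the standard errors of these differences were about as large as most of the differences.

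Levels per kilobase of gene length show the order of the members within an age. In young libraries Serpinb6b (22.5 ± 6.997 CPM per kb), Serpinb9 (21.1 ± 7.16) and Serpina3g (18.3 ± 8.08) stood at the top and did not differ beyond their spread. Serpinb1a (5.66 ± 2.41) and Serpinb6a (4.88 ± 2.47) followed and overlapped, and Serpina3f was last at 1.23 ± 1.52 CPM per kb (SD, n = 6 for each). In middle-aged libraries Serpina3g led at 102 ± 28.3 CPM per kb, above Serpinb9 (23.6 ± 5.91) and Serpinb6b (19.8 ± 3.997), which overlapped. Serpinb1a (11.2 ± 7.41), Serpina3f (4.93 ± 3.996) and Serpinb6a (4.31 ± 0.784) came last and overlapped with their neighbours (n = 5 for each).

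The makeup of the serpin transcripts shifted accordingly. All genes named Serpin together held 245 ± 27.9 in young and 447 ± 92.7 CPM in middle-aged libraries. Without Serpina3g they held 207 ± 38.3 and 233 ± 50.4 CPM, with overlapping ranges of 148 to 252 and 191 to 320.0 CPM. Serpina3g made up 16.2% ± 7.69 of serpin CPM in young libraries, at most 23.1%, and 47.7% ± 6.15 in middle-aged libraries, at least 42.7%. The share of Serpinb9 was 29.5% ± 7.61 and 18.9% ± 4.52. The 7 members together held 83.9% ± 1.69 and 89.6% ± 2.07 of all serpin CPM.

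**Figure D4:**
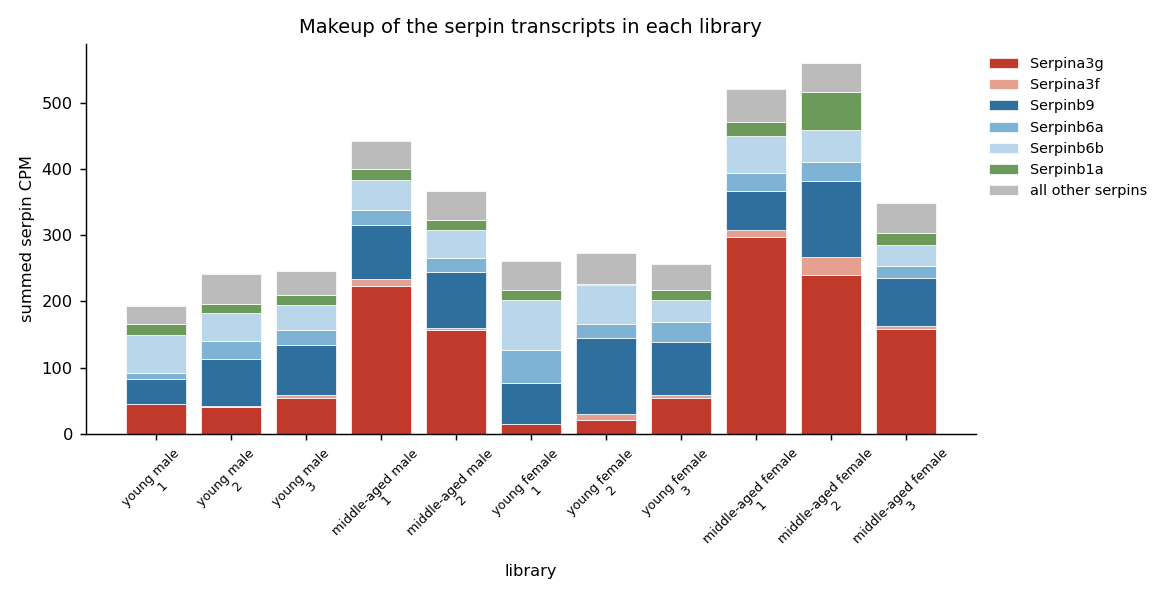
Summed CPM of all serpin genes in each of the 11 libraries (y axis), divided into 6 members and all other serpins. Serpina3g (red) takes 42.7 to 57.2% of the bar in middle-aged and 5.63 to 23.1% in young libraries, and the rest of the bar is of similar height at both ages except in middle-aged female 2.

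Of the 61 other genes named Serpin, 35 had no count in any library and 3 passed the filter on low counts. Serpini1, the gene of neuroserpin, an inhibitor of tissue plasminogen activator, had 32.6 ± 6.96 in young and 39.97 ± 5.01 CPM in middle-aged libraries (log2 fold change 0.29, standard error 0.22). Serpinb9b, a neighbour and paralog of Serpinb9, had 4.91 ± 4.54 and 0.948 ± 1.09 CPM, with no count in 3 of the 11 libraries and a log2 fold change of -2.51 (standard error 1.39). Serpine2, the gene of protease nexin 1, had 1.096 ± 1.69 and 1.05 ± 1.16 CPM (log2 fold change -0.20, standard error 1.202). None of the 3 passed the test (each adjusted p = 1.00, edgeR with Benjamini-Hochberg adjustment). The log2 fold change was positive for 1 of 3, beside 50.4% of all tested genes. No other serpin was below an unadjusted p of 0.05 or called by DESeq2 or limma voom.

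Among 31 granule, lysosomal and inflammatory proteases, caspases and aspartic cathepsins included, 21 were tested. Their median log2 fold change was 0.18 and 15 of 21 were positive, beside 0.0028 and 50.4% over all tested genes. None passed edgeR's test with Benjamini-Hochberg adjustment, where the lowest adjusted p was 0.321. DESeq2 and limma voom each called 3, namely Cma1, Gzma and Gzmk, where they called 0.86% and 1.05% of all genes. At an unadjusted p under 0.05, 3 were higher and 2 were lower in middle-aged libraries. The most abundant per kilobase over all libraries were Ctsw, the gene of a cathepsin of cytotoxic cells, Ctsd, that of the lysosomal aspartic protease cathepsin D, and Gzma. In middle-aged libraries alone Gzmm, the gene of granzyme M, stood above Gzma, at 226 against 94.1 CPM per kb. So did Ctss, that of cathepsin S, at 179 and Ctsz, that of cathepsin Z, at 108 CPM per kb. Ctsw had 1009 ± 192 in young and 1197 ± 72.8 CPM in middle-aged libraries, and Ctsd had 705 ± 94.0 and 793 ± 78.8 CPM.

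Gzma, the gene of granzyme A, had 215 to 471 CPM in young libraries where the middle values were those of young males 2 and 3 at 292 and 299.7 CPM. Middle-aged males had 23.5 and 35.0 CPM, and middle-aged females 1 to 3 had 37.7, 333 and 43.7 CPM. Thus 4 of 5 middle-aged libraries lay far below all young ones, and middle-aged female 2 lay among them. The log2 fold change was -2.20 (standard error 0.62, adjusted p = 0.558 in edgeR's test with Benjamini-Hochberg adjustment). Without middle-aged female 2 it was -3.22 (standard error 0.28, adjusted p = 0.00201 by the same test), and the middle-aged mean was 35.0 in place of 94.7 CPM. Over 22 alternatives the adjusted p of Gzma ran from 0.00201 to 1 in edgeR, DESeq2 or limma, and it passed in 3.

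Gzmb, the gene of granzyme B and the known target of Serpinb9, had 21.4 to 60.9 CPM in young libraries. Middle-aged libraries had 22.2, 21.9, 21.4 and 18.1 CPM, apart from middle-aged female 2 with 143 CPM. Its log2 fold change was 0.0029 with that library (standard error 0.58) and -0.90 without it (standard error 0.31), neither of which passed edgeR's test with Benjamini-Hochberg adjustment. Gzma stands in the list of 9 NK cell markers as well. The other 8 summed to 622 to 856 in young and 639 to 982 CPM in middle-aged libraries, highest in middle-aged female 2. Single markers of the list differed from that sum. Ncr1 ran from 25.1 to 120 in young and 1.80 to 48.7 CPM in middle-aged libraries (log2 fold change -2.33), Klrb1c had a log2 fold change of -0.78, and Klra4 ran from 30.6 to 52.9 and from 8.20 to 26.3 CPM without overlap (log2 fold change -1.70, adjusted p = 0.228 in edgeR with Benjamini-Hochberg adjustment). Eomes and Klre1 had log2 fold changes of 0.61 and 0.65, and none of these markers passed the adjusted threshold. The part of other cells in the granzyme values was not tested.

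Ctsb and Ctsl, the genes of the cathepsins that Serpina3g is known to inhibit, were measured in the same libraries. Ctsb had 339 ± 39.8 in young and 347 ± 80.3 CPM in middle-aged libraries (log2 fold change 0.04, standard error 0.21). Ctsl had 16.4 ± 3.84 and 10.9 ± 2.45 CPM (log2 fold change -0.58, standard error 0.30, adjusted p = 1.00 in edgeR's test with Benjamini-Hochberg adjustment). The log2 ratio of Serpina3g to the sum of both, each per kilobase, ran from -2.85 to -1.03 in young and from 0.54 to 1.21 in middle-aged libraries, below 0 in every young library and above 0 in every middle-aged one. This sign rests on the gene length of the count table, 2105 bases for Serpina3g, 6051 for Ctsb and 6489 for Ctsl. The length of the transcripts present in these cells was not measured. In CPM without length the log2 ratio was below 0 in all 11 libraries, from -4.37 to -2.56 in young and from -0.99 to -0.31 in middle-aged ones, again without overlap.

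The ratios of the Serpinb genes were taken in log2 CPM without length. For Serpinb9 to Gzmb the log2 ratio averaged 0.91 ± 0.57 in young and 1.39 ± 0.98 in middle-aged libraries, with overlapping ranges. It was above 0 in 10 of the 11 libraries, and middle-aged female 2 had -0.31. The order of the mean levels rests on length too. Per kilobase the mean of Serpinb9 was below that of Gzmb, at 21.1 against 27.2 CPM per kb in young libraries. In middle-aged libraries the means were 23.6 and 31.5 CPM per kb, an order that held only with middle-aged female 2 included. Without that library the middle-aged Gzmb mean was 20.9 in place of 45.3 CPM. In each of the other middle-aged libraries Serpinb9 was above Gzmb per kilobase as well. For Serpinb6b to Gzma the log2 ratio averaged -2.68 ± 0.73 in young and -0.29 ± 1.47 in middle-aged libraries. Middle-aged female 2, at -2.76, lay among the young values. Between the ages the mean level of Serpinb6b went from 51.0 to 44.7 CPM and that of Gzma from 326 to 94.7 CPM.

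Of the other proteases with an unadjusted p under 0.05, Gzmk, the gene of granzyme K, had 0 to 3.66 in young and 4.48 to 40.8 CPM in middle-aged libraries (log2 fold change 2.95, standard error 0.91, adjusted p = 0.720 in edgeR's test with Benjamini-Hochberg adjustment) and was the only one of the 21 whose ages did not overlap. Casp1, the gene of the inflammatory caspase 1, had 8.65 ± 6.48 and 19.3 ± 4.70 CPM (log2 fold change 1.29, standard error 0.47). Ctsz, the gene of cathepsin Z, had 113 ± 14.8 and 155 ± 32.7 CPM (log2 fold change 0.47, standard error 0.20). Cma1, the gene of a mast cell chymase, had 17.8 ± 7.62 and 3.48 ± 2.05 CPM (log2 fold change -2.42, standard error 0.53, adjusted p = 0.321 by the same test).

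Granule partners of the granzymes and other cathepsin inhibitors were measured as well. Prf1, the gene of perforin, had 257 ± 80.5 and 281 ± 44.0 CPM, and Srgn, that of the granule proteoglycan serglycin, had 330.2 ± 81.1 and 330.4 ± 51.8 CPM in young and middle-aged libraries. Of 13 cystatins, the other family of cathepsin inhibitors, 10 were in the table and 3 were tested, none of which passed in edgeR, DESeq2 or limma voom or had an unadjusted p under 0.05. Cst7, the gene of cystatin F, had 312 ± 78.0 and 445 ± 134 CPM (log2 fold change 0.51, standard error 0.25). Cst3 and Cstb had log2 fold changes of 0.13 (standard error 0.43) and -0.40 (standard error 0.57).

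The genes whose levels over the 11 libraries were most like that of Serpina3g were found by the root mean square difference of log2 CPM after centring each gene on its own mean. Among 13123 genes outside the members, Fcgr2b, the gene of an inhibitory Fc receptor, was nearest at 0.479, and among the nearest were also Oas1a at 0.620, Ctrl at 0.622 and Kcnip3 at 0.634, where the median gene stood at 1.55. Fcgr2b had 4.44 to 8.77 in young and 29.7 to 58.6 CPM in middle-aged libraries (log2 fold change 2.68, standard error 0.27). Ctrl was near the detection limit, with a mean of 0.216 CPM in young libraries. No member came as near to Serpina3g, the closest being Serpinb1a at 1.15 and Serpinb9 at 1.41. The nearest pair among the members was Serpinb9 with Serpinb6a at 0.556.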

How the data were processed

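RNA of FACS-sorted splenic CD8+ Tregs was sequenced in 11 libraries. The authors deposited 1 table of raw counts per gene, whole numbers without normalization, with GRCm38 coordinates that were equal to GENCODE M21 for the 7 members. The submitters' processing notes name kallisto and mm10, with no version or role. The rules for reads shared by paralogs, the strand setting and the test for differential expression are not given in the sources used here. All sample columns were used, and samples were grouped by their labels for age and sex. The labels give replicate numbers but not the animals behind them.

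From these counts, genes were filtered with filterByExpr on age (minimum count 10, minimum total 15), scaled with TMM and fitted with edgeR 4.0.16 (quasi-likelihood, robust) under a model with sex and age, or with their product for the interaction, in R 4.3.3. P-values were adjusted by Benjamini-Hochberg over 13129 genes. Standard errors were derived from the log2 fold change and the F statistic. CPM used TMM-scaled totals, and log2 CPM a prior count of 2. Levels of genes were ordered per kilobase, and the ratio of Serpina3g to the cathepsins was given with and without length. The ratios to Gzmb and Gzma used log2 CPM without length. A count of 0 was taken to allow 3 counts. Intervals and such limits cover counting error only. Named genes were all members, of each list the 3 most abundant per kilobase and up to 3 in each direction with an unadjusted p under 0.05, the proteases Gzma, Gzmb, Ctsb and Ctsl, and the 5 genes most like Serpina3g, of which 1 is not reported here. The members and lists were chosen with earlier results of these data known.

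On simulated counts with 200 genes changed by 3 on the log2 scale, the fit recovered 70% for age (2.1% of 143 calls false), 71.5% for sex (1.38% of 145) and 17.5% for the interaction (2.78% of 36). DESeq2 1.42.0, limma 3.58.1 (voom), other scalings, filters, blocks and left-out libraries were alternatives. Loop bases were found by the hinge motif in the translated GENCODE M21 transcripts.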

Additional observations from a re-analysis of the deposited data

Results flagged for a closer look

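Of 58 age groups tested for a library far from the rest, over 29 genes, 8 held one by Dixon's criterion, which flags about 1 group in 20 by chance. Middle-aged female 2 was the far library in 5 of them. Its Serpinb1a level was 55.9 CPM beside 22.1 CPM in the next library, its Gzma level 333 CPM beside 43.7 CPM, and its Gzmb level 143 CPM beside 22.2 CPM. Its Cma1 level was 6.998 CPM beside 3.12 CPM and its Oas1a level 58.0 CPM beside 32.3 CPM. This library also held the highest levels of S100a8, Elane, Prtn3 and Ctsg, as reported above, and the part of other cells in these 5 values was not tested.

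Young male 1, the shallowest library, had 20.95 CPM of Casp1 beside 9.89 CPM in the next young library and 636 CPM of Ctsw beside 1014 CPM in the next. Young female 2, the deepest library, had 1.87 CPM of Serpinb1a beside 13.7 CPM in the next. The cause of these values was not tested.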

How the results depend on the processing

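The log2 fold change of Serpina3g by age stayed positive in all 26 alternatives, from 2.01 (limma voom) to 2.93 (females alone), and from 2.32 to 2.85 over left-out libraries. Serpina3f stayed positive in 25, from 1.41 with deep libraries alone to 3.81 with a prior count of 0.5, and could not be fitted where every library had to hold 10 counts. Serpinb1a stayed positive in 26, from 0.11 (males alone) to 1.56 (females alone). Serpinb9 ranged from -0.07 to 0.42, Serpinb6a from -0.43 to 0.15 and Serpinb6b from -0.32 to 0.05, so that their sign was not fixed. The 3 genes called by age became 17 with at least 1 count in any library (13 higher), 5 where every library had to hold 10, 112 with DESeq2 (70 higher), 138 with limma voom (87 higher), 5 without a sex term, 6 in libraries with more than 10000000 counts and 1 to 4 over left-out libraries. Calls of proteases went from 0 to 3 (Cma1, Gzma and Gzmk) with DESeq2 and with limma voom, and ran from 0 to 1 over left-out libraries, the 1 being Gzma without middle-aged female 2. The 5 calls by sex became 0 where every library had to hold 10 counts and 0 to 5 over left-out libraries. Other serpins, cystatins and the interaction had 0 calls throughout. The cause of these changes was not tested, beyond the number of genes or libraries entering each fit. Replicate numbers were treated as names in the main fit, although most same-numbered pairs deviated together. Deviations were taken from the mean of each age and sex group. Their correlation was over 0.1 in 4 of 5 same-numbered pairs of 1 sex (median 0.32, lowest 0.03). Across sexes it was over 0.1 in 9 of 10 (median 0.38, lowest 0.03). Different numbers had medians of -0.16 and -0.20. Deviations within a group sum to 0, so these negative values follow in part from the positive ones and are no separate comparison. With the number as a replicate block shared by both sexes 19 genes were called by age, within sex 2, and the Serpina3g log2 fold change was 2.69 in each, called with the shared block and not with the block within sex. There Serpina3f had 3.02. Serpina3g was called in 7 of 25 alternatives, the other 6 being upper-quartile factors, both other count filters, DESeq2, limma voom and no sex term. Depth limits Serpina3f in the 2 shallowest libraries, where it had no count.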
